A study of Mus musculus with 10 samples.

Results

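Purkinje cells are the large inhibitory output neurons of the cerebellar cortex. The genes described here are 7 genes taken as their markers: Pcp2, Calb1, Car8, Ppp1r17, Rgs8, Itpr1 and Arhgef33. They were chosen with earlier results of these data known. The other gene lists below were also chosen with those results known. Counts of the members and of these lists beside the shares of all probe sets are therefore description and no test of a set. Members were taken as the probe sets whose single annotated gene symbol was one of these names. That gave 1 probe set for each of 6 genes, 6 of the 21789 probe sets with 1 symbol (19938 genes), and no probe set was listed under Itpr1, which encodes the type 1 inositol trisphosphate receptor and has no value here. The arrays held whole-brain RNA of male C57BL/6J offspring at postnatal day 70, and the question was whether exposure to alcohol before and soon after birth leaves a mark on gene expression in the adult brain. The mothers of the ethanol groups drank 10% ethanol in water, and those of the control groups water alone, from the start of gestation until the pups were 10 days old. Experiment 1 comprised 2 ethanol and 2 control arrays, each of pooled RNA from 3 mice, and experiment 2 comprised 3 ethanol and 3 control arrays, each of pooled RNA from 2 mice. Each array is called a pool below, numbered by its replicate. Whether pools shared litters is not given in the sources used here, so the p-values measure the spread between pools.

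Purkinje cells receive excitation from the parallel fibres of granule cells and from climbing fibres, and both inputs raise calcium in their dendrites. Metabotropic glutamate receptors act there through a G protein, phospholipase C and inositol trisphosphate, which opens the receptor Itpr1 on internal calcium stores. Besides Itpr1, Car8 encodes a carbonic anhydrase-related protein that binds the inositol trisphosphate receptor, and Calb1 the calcium buffer calbindin. Not all of the 7 genes belong to this route. Pcp2 and Rgs8 encode regulators of G protein alpha subunits, and Ppp1r17 an inhibitor of protein phosphatases. In rodents these neurons are known to be sensitive to ethanol soon after birth. In RNA from a whole brain, fewer Purkinje cells, less of these transcripts per cell and less cerebellar tissue in a pool cannot be told apart by these genes.

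All values are the authors' deposited log2 levels, so a difference of -1 is a halving. For every probe set the mean over experiment 1 equalled the mean over experiment 2 to within 5.83e-05, so levels were compared only within an experiment. Array medians ran from 6.99 to 7.05. Of 9 general markers of neurons, astrocytes and oligodendrocytes 8 were measured and their mean levels ran from 8.45 to 13.3, against a median of 7.36 over the gene probe sets. Gh, Prl and Cga, hormone transcripts of the anterior pituitary, had a mean of 9.08 to 11.86 on ethanol pools 1 and 2 of experiment 1 and ethanol pool 2 of experiment 2, and of 5.66 to 7.69 on the other 7 arrays.

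All 6 measured Purkinje cell genes had lower fitted values on the ethanol arrays over both experiments, where 54.4% of all probe sets did. The differences ran from -0.43 log2 units for Ppp1r17 to -0.10 for Calb1 with a median of -0.17, against -0.01 over all probe sets. None of the 6 passed the limma test at an adjusted p of 0.05 (adjusted p from 0.306 to 0.548), and 0% of all 21789 probe sets did. At an unadjusted limma p under 0.05 there were 3 of 6 lower (Ppp1r17, Car8 and Calb1), against 7.68% of all probe sets lower at that p, and 0 of 6 higher, against 4.72%. The low values lay mainly on ethanol pool 2 of experiment 1 and ethanol pool 3 of experiment 2. The median deviation of the 6 genes from the mean of their controls was -0.53 and -0.30 there. The median difference was -0.10 without the first of these arrays and -0.12 without the second.

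**Figure D1:**
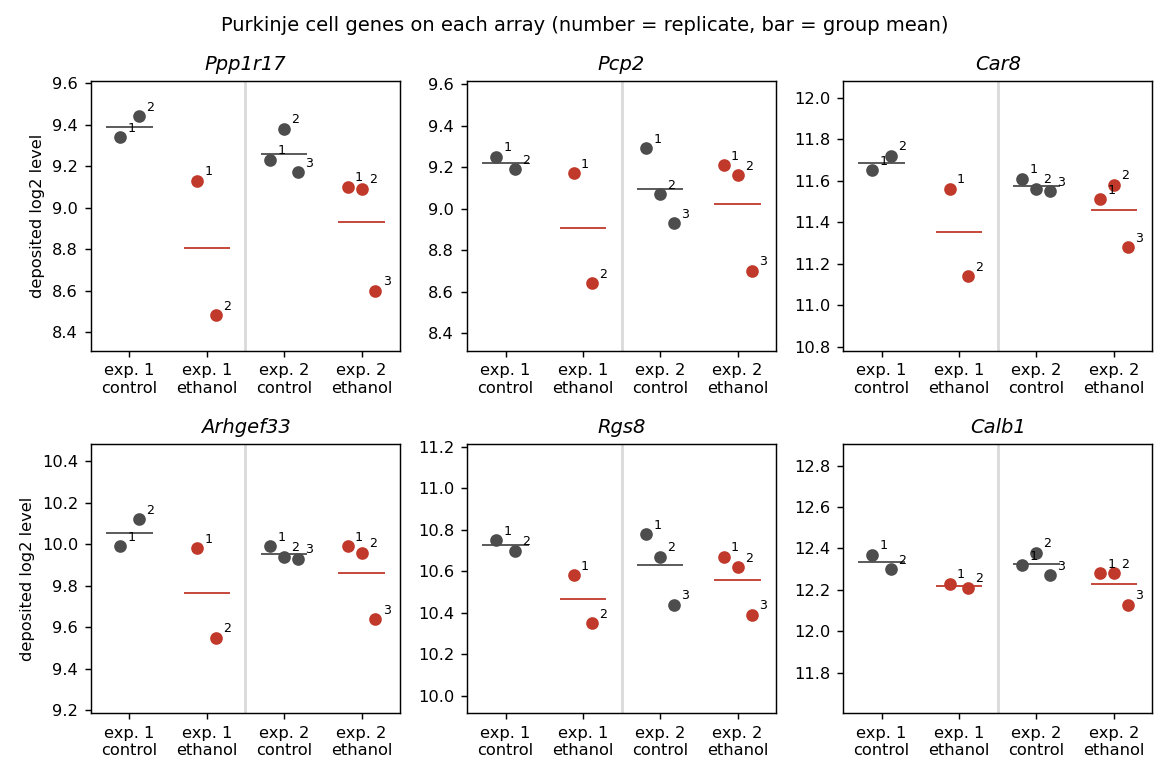
Deposited log2 level of the 6 measured Purkinje cell genes on each array (vertical axis, with the same span in each panel) by experiment and treatment; points are single arrays marked with their replicate number and bars are group means. Ethanol pool 2 of experiment 1 and ethanol pool 3 of experiment 2 are the lowest arrays of their experiments for each gene.

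Ppp1r17, also called G-substrate, is phosphorylated by cyclic GMP-dependent protein kinase and then inhibits protein phosphatases 1 and 2A. In experiment 1 its level was 9.13 and 8.48 on ethanol pools 1 and 2 and 9.34 and 9.44 on control pools 1 and 2. In experiment 2 it was 9.10, 9.09 and 8.60 on ethanol pools 1 to 3 and 9.23, 9.38 and 9.17 on control pools 1 to 3. Each ethanol array was thus below each control array of its experiment, which held for 1 of the 6 genes and for 2.82% of all probe sets. As a share of the mean signal of their own controls, the 5 ethanol arrays had 83.2%, 53.1%, 89.3%, 88.8% and 63.3%, in the order just given. The value on ethanol pool 2 of experiment 1 was the furthest below its controls of all 21789 probe sets on that array, and that on ethanol pool 3 of experiment 2 was the 15th furthest.

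Over both experiments Ppp1r17 differed by -0.43 ± 0.12 log2 units (SE; 95% confidence interval -0.70 to -0.17), which is 74.0% of the control level. It did not pass (limma adjusted p = 0.306), although only 6 probe sets of 21789 had a lower fitted difference. The difference was -0.59 ± 0.20 in experiment 1 (limma adjusted p = 0.424) and -0.33 ± 0.16 in experiment 2 (adjusted p = 0.52). The experiments differed in this by 0.26 ± 0.25, with an interval of -0.29 to 0.81 that takes in 0. Leaving out ethanol pool 1 of experiment 1 gave -0.91 in that experiment (limma adjusted p = 0.0382, one of 235 probe sets that passed in that fit, which takes the spread of the single remaining ethanol array from the other groups). Leaving out ethanol pool 2 gave -0.27 there, and leaving out ethanol pool 3 of experiment 2 gave -0.17 in experiment 2.

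Calb1 encodes calbindin, which binds calcium in Purkinje cells and also in neurons of the striatum, hippocampus and cortex. Its level in experiment 1 was 12.23 and 12.21 on the ethanol arrays and 12.37 and 12.30 on the control arrays. In experiment 2 it was 12.28, 12.28 and 12.13 on the ethanol arrays and 12.32, 12.38 and 12.27 on the control arrays. All 5 ethanol arrays were below the control mean of their experiment, by 0.05 to 0.20 log2 units, but in experiment 2 the groups overlapped. Over both experiments the difference was -0.10 ± 0.04 (limma unadjusted p = 0.0358, adjusted p = 0.377). It was -0.11 ± 0.07 in experiment 1 and -0.10 ± 0.06 in experiment 2, and the difference between these was 0.02 ± 0.09. Calb1 thus had the smallest difference of the 6 genes over both experiments and in experiment 1, and its values moved least on the arrays where the others were lowest.

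Car8 lowers the affinity of the inositol trisphosphate receptor for its ligand, and mice that lack it have an ataxic gait. Its level in experiment 1 was 11.56 and 11.14 on the ethanol arrays and 11.65 and 11.72 on the control arrays. In experiment 2 the ethanol arrays had 11.51, 11.58 and 11.28 and the control arrays 11.61, 11.56 and 11.55. In experiment 1 the groups did not overlap, and in experiment 2 ethanol pool 2 lay between the control values. The difference over both experiments was -0.20 ± 0.08 (86.8% of the control level, limma unadjusted p = 0.0272, adjusted p = 0.359). It was -0.34 ± 0.12 in experiment 1 (limma unadjusted p = 0.0186, adjusted p = 0.466) and -0.11 ± 0.10 in experiment 2 (adjusted p = 0.726). In experiment 1 it was -0.55 without ethanol pool 1, where it was, beside Ppp1r17, the other of the 6 genes to pass in that reduced fit (limma adjusted p = 0.0424), and -0.13 without ethanol pool 2. Without ethanol pool 3 of experiment 2 it was -0.03 in experiment 2.

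Pcp2, also called L7, carries a GoLoco motif that binds alpha subunits of inhibitory G proteins, and its promoter is widely used to drive transgenes in Purkinje cells. Its level in experiment 1 was 9.17 and 8.64 on the ethanol arrays and 9.25 and 9.19 on the control arrays. In experiment 2 it was 9.21, 9.16 and 8.70 on the ethanol arrays and 9.29, 9.07 and 8.93 on the control arrays. Ethanol pools 1 and 2 of experiment 2 lay above the control mean, at 108.4% and 104.1% of it, while ethanol pool 3 had 76.1%. The difference over both experiments was -0.17 ± 0.12 (limma adjusted p = 0.548), with an interval of -0.43 to 0.08. It was -0.32 ± 0.19 in experiment 1 and -0.07 ± 0.15 in experiment 2, where it became 0.09 without ethanol pool 3 and 0.02 without control pool 1.

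Rgs8 speeds the hydrolysis of GTP by G protein alpha subunits and so shortens their signal. Its level in experiment 1 was 10.58 and 10.35 on the ethanol arrays and 10.75 and 10.70 on the control arrays. In experiment 2 it was 10.67, 10.62 and 10.39 on the ethanol arrays and 10.78, 10.67 and 10.44 on the control arrays. Here control pool 3 was low as well, 0.19 below the control mean, and the groups overlapped. The difference was -0.15 ± 0.08 over both experiments (limma adjusted p = 0.455), -0.26 ± 0.12 in experiment 1 and -0.07 ± 0.10 in experiment 2. In experiment 2 it was 0.01 without ethanol pool 3, and also 0.01 without control pool 1.

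Arhgef33 is named for a guanine nucleotide exchange factor domain. Its level in experiment 1 was 9.98 and 9.55 on the ethanol arrays and 9.99 and 10.12 on the control arrays, so that ethanol pool 1 lay just below the lower control. In experiment 2 it was 9.99, 9.96 and 9.64 on the ethanol arrays and 9.99, 9.94 and 9.93 on the control arrays. Ethanol pool 3 of experiment 2 stood apart there, and the other ethanol arrays lay within the range of the controls or at its edge. The difference was -0.17 ± 0.09 over both experiments (limma adjusted p = 0.443), -0.29 ± 0.14 in experiment 1 and -0.09 ± 0.11 in experiment 2, where it was 0.02 without ethanol pool 3.

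Promoter sequences from RefSeq (GRCm38.p6) were matched for 3 of the 7 genes, Pcp2, Rgs8 and Arhgef33. Those of the other genes were not in the source used here. The table gives several starts for some genes, 8 in all: 4 for Pcp2, 3 for Rgs8 and 1 for Arhgef33. The 250 bases before each start were searched on both strands for AGGTCA, the half-site bound by nuclear receptors such as the Purkinje cell factor RORα, for the E-box CANNTG, for the cyclic AMP response element TGACGTCA and for TATAAA, none of which contains another. AGGTCA was found before 5 of the 8 starts, as 4 different matches since Pcp2 windows overlap, and before 14% of all 32851 starts of the table. CANNTG was found before 6 of 8 (66.2% of all), TATAAA before 1 of 8 (12.4%) and TGACGTCA before 0 of 8 (1.55%). The 8 starts belong to 3 genes and are not independent of each other, and these shares were not tested. The sequences run 5′ to 3′ on the strand of the gene and end at the base before the start, with AGGTCA or its reverse complement TGACCT in capitals.
Pcp2, first start, chr8:3625548-3625797, minus strand: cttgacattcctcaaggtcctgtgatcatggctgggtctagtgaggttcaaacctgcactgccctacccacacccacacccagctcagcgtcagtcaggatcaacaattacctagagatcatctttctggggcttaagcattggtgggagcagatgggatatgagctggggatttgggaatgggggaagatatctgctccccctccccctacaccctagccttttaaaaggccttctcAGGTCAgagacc
Rgs8, last start, chr1:153665423-153665672, plus strand: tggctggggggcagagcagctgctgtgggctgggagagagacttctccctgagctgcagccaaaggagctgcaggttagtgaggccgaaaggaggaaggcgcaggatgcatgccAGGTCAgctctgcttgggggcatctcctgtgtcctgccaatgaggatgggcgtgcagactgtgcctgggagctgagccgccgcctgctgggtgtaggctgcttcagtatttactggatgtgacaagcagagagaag
Arhgef33, chr17:80307157-80307406, plus strand: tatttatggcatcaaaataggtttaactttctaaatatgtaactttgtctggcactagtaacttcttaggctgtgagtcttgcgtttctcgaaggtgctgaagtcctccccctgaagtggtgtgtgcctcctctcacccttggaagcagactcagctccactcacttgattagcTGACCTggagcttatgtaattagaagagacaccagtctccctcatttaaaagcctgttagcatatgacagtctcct
For Rgs8 the printed start is the one of 3 that has the match. The match begins 12 bases before the start in Pcp2, 136 in Rgs8 and 76 in Arhgef33. These are matches of letters in these windows and describe no binding. Rora itself differed by -0.05 ± 0.04 between ethanol and control arrays (limma adjusted p = 0.555). A part of RORα in the values of these genes was not tested.

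Among the 6 genes, the depth of the low values followed nearly the same order on both arrays that stood apart. On ethanol pool 2 of experiment 1 the deviations from the control mean were -0.91 for Ppp1r17, -0.59 for Pcp2, -0.55 for Car8, -0.51 for Arhgef33, -0.38 for Rgs8 and -0.13 for Calb1. On ethanol pool 3 of experiment 2 they were -0.66 for Ppp1r17, -0.39 for Pcp2, -0.31 for Arhgef33, -0.29 for Car8, -0.24 for Rgs8 and -0.20 for Calb1. Ppp1r17 was the lowest and Calb1 the highest on both arrays, and Car8 and Arhgef33, which had close values, changed places. On the first of these arrays 4 of the genes (Ppp1r17, Pcp2, Car8 and Arhgef33) were among the 74 probe sets of 21789 furthest below their controls, while Calb1 was at place 3746.

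The other 3 ethanol arrays were closer to their controls. On ethanol pool 1 of experiment 1 the deviations of the 6 genes ran from -0.27 for Ppp1r17 to -0.06 for Pcp2. On ethanol pools 1 and 2 of experiment 2 they ran from -0.16 to 0.12 and from -0.17 to 0.06, with Ppp1r17 the lowest on both. Control pool 3 of experiment 2 was low as well, with deviations from -0.19 for Rgs8 to -0.02. The median of the 6 genes was -0.53 and -0.30 on the arrays that stood apart, -0.11 on ethanol pool 1 of experiment 1, and at most 0.01 from 0 on ethanol pools 1 and 2 of experiment 2. After quantile normalization the medians of the arrays that stood apart were -0.51 and -0.27, and after median centring -0.55 and -0.34.

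**Figure D2:**
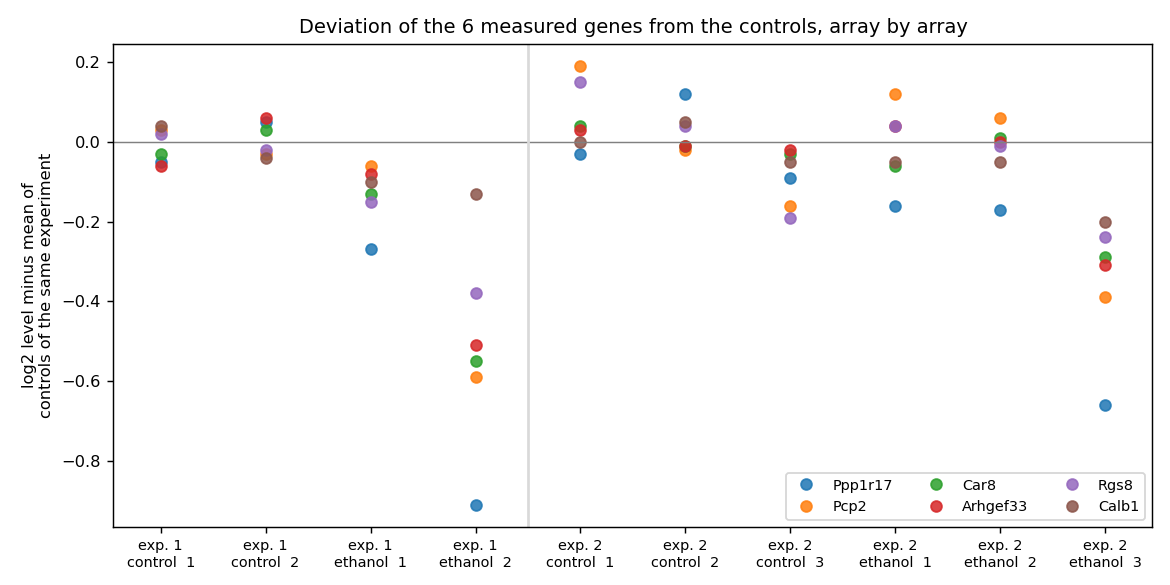
Log2 level minus the mean of the control arrays of the same experiment (vertical axis) for the 6 measured genes on each of the 10 arrays; each point is 1 gene on 1 array. On ethanol pool 2 of experiment 1 the genes spread from -0.91 (Ppp1r17) to -0.13 (Calb1), and on ethanol pool 3 of experiment 2 from -0.66 to -0.20.

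In experiment 1 alone, the median difference of the 6 genes was -0.31 log2 units, against 0.00 over all probe sets, and all 6 were lower, as were 51.8% of all probe sets. Every ethanol array was below every control array for 6 of 6 genes, against 19.2% of all probe sets. At an unadjusted limma p under 0.05 there were 2 of 6 lower (Car8 and Ppp1r17), against 4.93% of all probe sets, and 0 of 6 higher, against 4.02%. None passed at an adjusted p of 0.05, as for all probe sets (0%). With 2 arrays a treatment, this median was -0.53 without ethanol pool 1 and -0.11 without ethanol pool 2.

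In experiment 2 the median difference was -0.09, against -0.01 over all probe sets, and all 6 were lower, as were 54.9% of all probe sets. Every ethanol array was below every control array for 1 of 6 genes, Ppp1r17, against 11.6% of all probe sets. At an unadjusted limma p under 0.05 there were 0 of 6 lower, against 6.19% of all probe sets, and 0 of 6 higher, against 3.78%. None passed at an adjusted p of 0.05 (0% of all probe sets). Without ethanol pool 3 the median was -0.01 and 3 of 6 genes were lower, namely Ppp1r17, Car8 and Calb1. Without control pool 1 there were 4 of 6 lower, and the median was -0.15 without ethanol pool 1 and -0.14 without control pool 3.

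**Figure D3:**
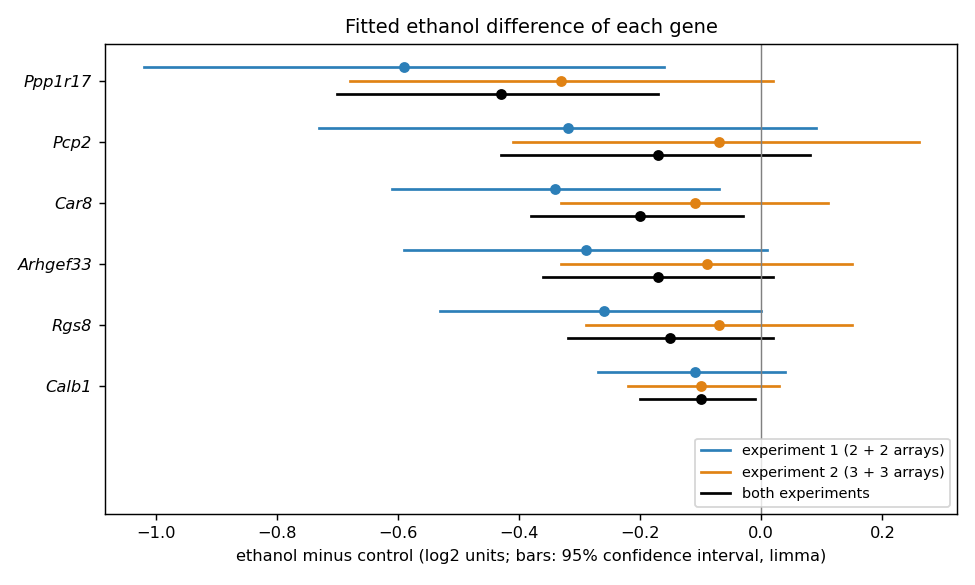
Fitted ethanol minus control difference of each gene in log2 units (horizontal axis) in experiment 1, in experiment 2 and over both; points are limma estimates and bars 95% confidence intervals. Every estimate is below 0, and over both experiments the intervals of Ppp1r17 (-0.70 to -0.17), Car8 (-0.38 to -0.03) and Calb1 (-0.20 to -0.01) leave out 0 before adjustment for the number of probe sets.

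The size of the difference was not shown to differ between the experiments for any of the 6 genes. The difference between experiments, experiment 2 minus experiment 1, ran from 0.02 ± 0.09 for Calb1 to 0.26 ± 0.25 for Ppp1r17. None had an unadjusted limma p under 0.05 (p from 0.183 to 0.848), against 6.57% of all probe sets, and none passed at an adjusted p of 0.05 (0% of all probe sets). The intervals were wide, for Pcp2 from -0.28 to 0.77, so that a difference as large as the one in experiment 1 itself lay within them.

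**Figure D4:**
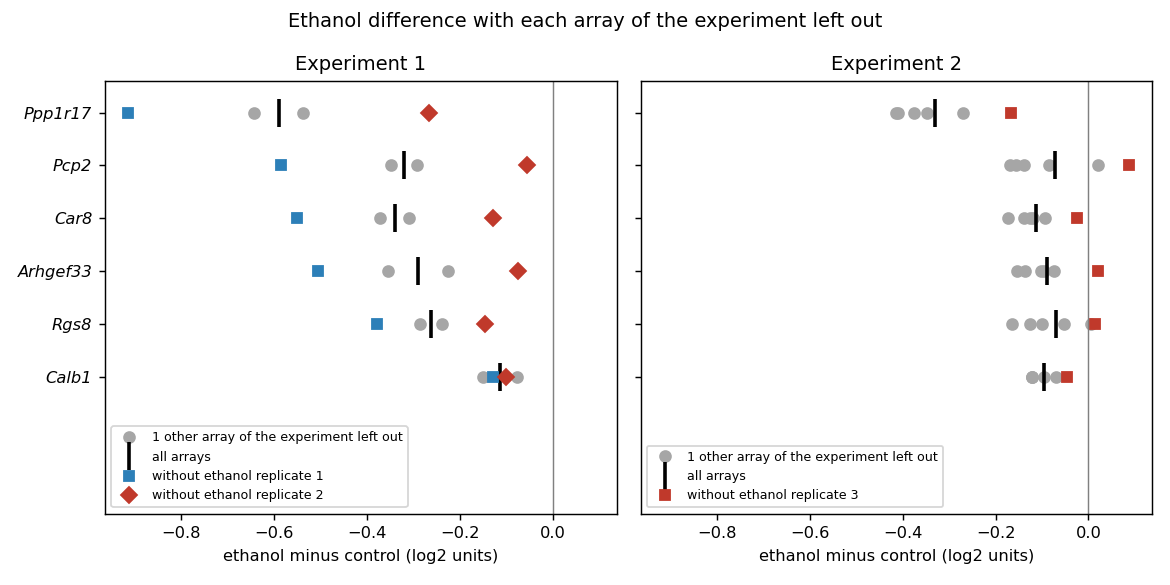
Ethanol minus control difference of each gene in log2 units (horizontal axis, shared) within experiment 1 (left) and experiment 2 (right), with all arrays (vertical mark) and with each array of the experiment left out in turn (points). Without ethanol pool 3 of experiment 2, Pcp2, Arhgef33 and Rgs8 lie at 0.09, 0.02 and 0.01, to the right of 0.

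Further genes enriched in Purkinje cells, from a list of 24 of which 20 were measured, were lower for 16 and higher for 4 over both experiments (54.4% of all probe sets were lower), with a median of -0.08. They ran from -0.20 to 0.02. None passed at an adjusted p of 0.05, and 3 of 20 were lower at an unadjusted limma p under 0.05, against 7.68% of all probe sets. These were Atp2a3, a calcium pump of the endoplasmic reticulum (-0.20 ± 0.09), Homer3, a scaffold of metabotropic glutamate receptors (-0.13 ± 0.05), and Pvalb, the calcium buffer parvalbumin, which many interneurons also make (-0.13 ± 0.06). Pcp4l1, a relative of the calmodulin-binding protein Pcp4, had -0.09 ± 0.05. The 4 genes that were not lower were Pcp4 (0.02 ± 0.04), Aldoc (0.01 ± 0.04), Foxp2 (0.00 ± 0.05) and Skor2 (0.00 ± 0.06). The list's median was -0.11 and -0.13 on the arrays where the 6 genes were lowest and from -0.03 to -0.02 on the other 3 ethanol arrays.

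Of 24 genes of the route from metabotropic glutamate receptor 1 through inositol trisphosphate to calcium, 21 were measured, 14 were lower and 7 higher (54.4% of all probe sets were lower), with a median of -0.02 and 0 past an adjusted p of 0.05. At an unadjusted limma p under 0.05 there were 3 of 21 lower, against 7.68% of all probe sets: Itpkb, which phosphorylates inositol trisphosphate (-0.26 ± 0.05, adjusted p = 0.215), and again Homer3 and Atp2a3. Ryr2, a calcium release channel, had 0.08 ± 0.04. The median of this list was -0.02 and -0.03 on the 2 arrays where the Purkinje cell genes were lowest. Itpr2 and Itpr3, the other inositol trisphosphate receptors beside the unmeasured Itpr1, each had -0.02 ± 0.04.

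Family relatives of the 7 genes together with the kinase and phosphatases that act with Ppp1r17 (25 genes, all measured) were lower for 21 and higher for 4 (54.4% of all probe sets were lower), with a median of -0.04, a range of -0.13 to 0.04 and 0 past an adjusted p of 0.05. At an unadjusted limma p under 0.05 there was 1 of 25 lower, Pvalb, against 7.68% of all probe sets. The next smallest p were those of Calb2, the calcium buffer calretinin, abundant in granule cells (-0.12 ± 0.06), Rgs14, which joins a GoLoco motif to a domain like that of Rgs8 (-0.10 ± 0.06), and Car10, which like Car8 belongs to the carbonic anhydrase-related proteins (-0.07 ± 0.05).

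Markers of cerebellar granule cells, whose axons are the parallel fibres, were low on the same arrays. Of 19 measured, 18 were lower over both experiments with a median of -0.18, where 54.4% of all probe sets were lower. At an unadjusted limma p under 0.05 there were 9 of 19 lower, against 7.68% of all probe sets, with 0 past an adjusted p of 0.05. As this list was chosen with earlier results of these data known, the count is description only. The zinc finger factors Zic2 (-0.22 ± 0.07) and Zic1 (-0.20 ± 0.06), the homeobox factor Barhl2 (-0.23 ± 0.08) and the GABA receptor subunit Gabra6 (-0.28 ± 0.10) had the smallest p. The median of this list was -0.42 on ethanol pool 2 of experiment 1 and -0.23 on ethanol pool 3 of experiment 2, beside -0.53 and -0.30 for the 6 Purkinje cell genes. The list ran from -0.91 to -0.06 on the first array and from -0.46 to 0.06 on the second. On ethanol pool 1 of experiment 1 the median was -0.12, and on ethanol pools 1 and 2 of experiment 2 it was -0.04 and 0.00. The part of these cerebellar transcripts, or of the amount of cerebellar tissue in a pool, in the values of the 6 genes was not tested.

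The list for other cerebellar cells had a smaller median than the granule cell list, over genes that ran from -0.31 to 0.01. Markers of Bergmann glia, cerebellar interneurons and unipolar brush cells (14 measured) were lower for 12 (54.4% of all probe sets were lower) with a median of -0.06. At an unadjusted limma p under 0.05 there were 4 of 14 lower, against 7.68% of all probe sets. These were Tfap2b, a transcription factor of molecular layer interneurons (-0.31 ± 0.08), Hopx and Septin4 of Bergmann glia (-0.12 ± 0.04 and -0.10 ± 0.04) and Slc6a5, the glycine transporter of inhibitory neurons of the cerebellum and brainstem (-0.28 ± 0.13). The median of the list was -0.10 on both of the arrays where Purkinje cell genes were lowest. Hox genes of the hindbrain, a list added after values were seen, were lower for 6 of 11 (54.4% of all probe sets were lower) with a median of 0.00. Their median on those arrays was 0.04 and 0.02. At an unadjusted limma p under 0.05 there were 1 of 11 lower and 1 of 11 higher, against 7.68% and 4.72% of all probe sets. The smallest p of the Hox list were those of Hoxd4 (0.14 ± 0.04), Hoxd3 (-0.11 ± 0.05), Hoxa5 (-0.10 ± 0.07) and Hoxb2 (-0.09 ± 0.06). Their mean levels of 5.32 to 6.83 were all under the median of the gene probe sets.

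**Figure D5:**
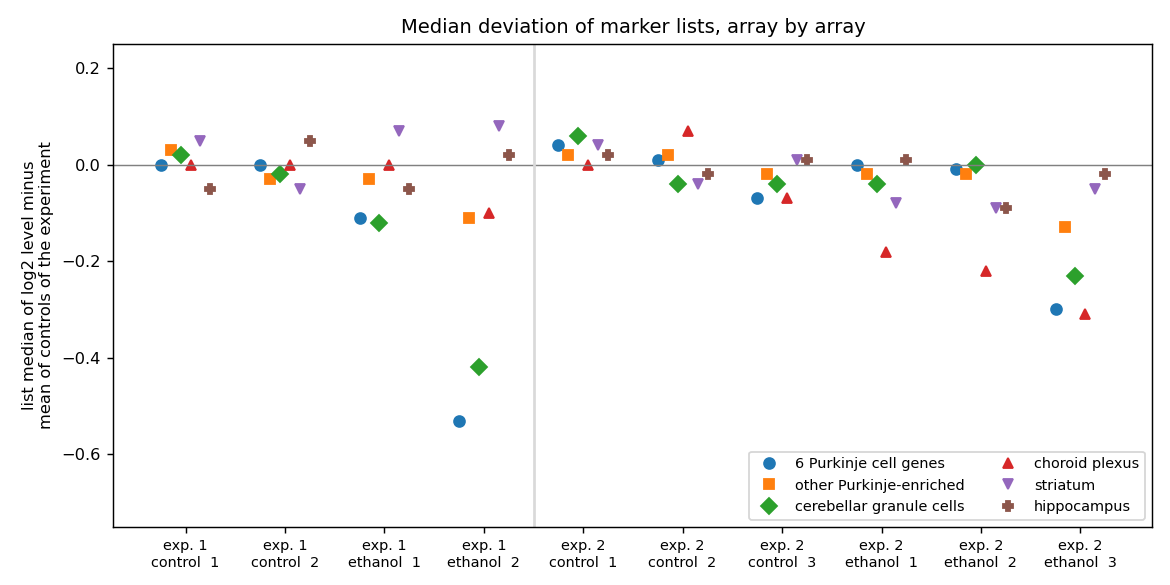
Median over each of 6 gene lists (the measured Purkinje cell genes, further Purkinje-enriched genes, granule cells, choroid plexus, striatum, hippocampus) of the log2 level minus the mean of the control arrays of the same experiment (vertical axis) on each of the 10 arrays; each point is 1 list on 1 array. The Purkinje cell genes (-0.53 and -0.30) and the granule cell list (-0.42 and -0.23) are low on ethanol pool 2 of experiment 1 and ethanol pool 3 of experiment 2, while the striatum and hippocampus lists stay between -0.09 and 0.08 on all arrays.

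The striatum and hippocampus, which also hold calbindin, were followed by their own markers. Of 10 striatal markers measured, 7 were lower over both experiments (54.4% of all probe sets were) with a median of -0.02. Their median was 0.08 and -0.05 on the arrays where Purkinje cell genes were lowest. The smallest p were those of Syndig1l (-0.09 ± 0.05), the neuropeptide precursor Tac1 (-0.06 ± 0.05), the dopamine receptor Drd2 (-0.04 ± 0.04) and the G protein regulator Rgs9 (0.05 ± 0.05). Of 10 hippocampal markers, 7 were lower (again beside 54.4% of all probe sets) with a median of -0.03, and their median on those arrays was 0.02 and -0.02. Wfs1 (-0.07 ± 0.05), Neurod6 (-0.07 ± 0.07), Npy2r (-0.07 ± 0.07) and Dsp (0.06 ± 0.07) had the smallest p of that list. Of the 8 general brain markers measured, 5 were lower (54.4% of all probe sets were) with a median of -0.05. The smallest p were those of Aqp4 (-0.11 ± 0.04), Mog (-0.12 ± 0.05), Gfap (-0.14 ± 0.06) and Syt1 (0.06 ± 0.04). At an unadjusted limma p under 0.05, 3 of these 8 were lower, against 7.68% of all probe sets. At that p 0 of 10 striatal and 0 of 10 hippocampal markers were lower.

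Anterior pituitary and choroid plexus transcripts also differed between pools. All 8 anterior pituitary markers measured were higher (54.4% of all probe sets were lower) with a median of 0.34. The smallest p were those of Ghrhr (0.28 ± 0.08), Prl (2.72 ± 0.87), Lhb (0.28 ± 0.09) and Gh (2.96 ± 1.03). At an unadjusted limma p under 0.05 there were 7 of 8 higher, against 4.72% of all probe sets. In experiment 1 both ethanol pools had a high mean of Gh, Prl and Cga: 10.73 on pool 1 and 9.08 on pool 2, which had the lowest Purkinje median (-0.53), against 5.66 and 5.91 on the controls. Ethanol pool 2 of experiment 2, with the highest mean of Gh, Prl and Cga (11.86), had a Purkinje median close to 0 (at most 0.01 from it). Ethanol pool 3 of experiment 2, with a Purkinje median of -0.30, had a hormone mean of 6.95, within the range of its controls (6.78 to 7.69). All 10 choroid plexus markers were lower (54.4% of all probe sets were) with a median of -0.11. At an unadjusted limma p under 0.05 there were 4 of 10 lower, against 7.68% of all probe sets. These were Kcnj13 (-0.31 ± 0.06), Otx2 (-0.29 ± 0.06), Kl (-0.27 ± 0.06) and Slc4a5 (-0.24 ± 0.07). The median of the list was -0.18, -0.22 and -0.31 on ethanol pools 1 to 3 of experiment 2. On ethanol pools 1 and 2 of experiment 1 it was 0.00 and -0.10, so that it was lowest on 1 of the arrays where Purkinje cell genes were low. The part of either tissue in the Purkinje values was not tested.

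The genes most like the 6 in pattern were sought by the root mean square distance between the deviations of a gene and the mean deviation of the 6 over the 10 arrays, which is 0 for identical patterns and had a median of 0.216 log2 units over all gene probe sets. Among genes outside the 6 the nearest were Atp2a3 (0.052), the granule cell transcription factor Pax6 (0.054), Chd7 (0.055), Foxo3 (0.057), Fam107b (0.062) and Cnpy1 (0.062). Their deviations on ethanol pool 2 of experiment 1 ran from -0.59 for Cnpy1 to -0.37 for Foxo3, and on ethanol pool 3 of experiment 2 from -0.36 for Atp2a3 and Chd7 to -0.25 for Foxo3 and Fam107b. Car8 (0.040) and Arhgef33 (0.045) were closer to the mean of the 6 than any other gene, and as parts of that mean they were drawn toward it. Rgs8 was at 0.073, Pcp2 at 0.080, Calb1 at 0.135 and Ppp1r17 at 0.185. In order of this distance Calb1 was at place 585 and Ppp1r17 at place 4939 of 21789 probe sets, although both are parts of that mean.

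Taken singly, Car8 and Arhgef33 were each other's nearest gene of all (0.042), followed by Cnpy1 (0.042) and Kcnk10 (0.049) for Car8 and by Cnpy1 (0.048) and Pax6 (0.054) for Arhgef33. Nearest to Ppp1r17 were Dao (0.102), Chd7 through another of its probe sets (0.116) and the granule cell gene Gabra6 (0.138). Dao had deviations of -0.74 and -0.48 on the arrays where the 6 genes were lowest. Nearest to Pcp2 were Yipf2 (0.076), Neurod1 (0.076) and Svep1 (0.079), and nearest to Rgs8 were Yipf2 (0.046), Rbm3 (0.049) and Foxo3 (0.054). Nearest to Calb1, whose own deviations were small, were Tbcd (0.022), Wscd1 (0.027) and Ttll5 (0.028). All these distances were computed over the same 10 arrays, in which shared differences between pools enter every gene.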

How the data were processed

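RNA from 10 pools of mouse brains was measured on Affymetrix whole-transcript arrays, with 200 ng of RNA per array, per the labels' protocols. The values deposited by the authors are log2 levels for 35556 probe sets, with 0 missing. They were made with Partek 6.6, per the submitters' processing notes. How background was corrected and arrays were normalized, and on which genome build, is not given in the sources used here. Each probe set has the same mean in both experiments, so that a difference between experiments had been taken out beforehand. The number of arrays limits the precision (median standard error 0.0519 log2 units over both experiments).

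Gene names came from the platform's annotation table: 21789 probe sets carried 1 symbol and were tested, 1621 carried several symbols and 12146 were not listed. All 21789 were fitted in R 4.3.3 with limma 3.58.1. The model had experiment and treatment as terms, leaving 7 residual degrees of freedom, or 4 group means, leaving 6, with Benjamini-Hochberg adjustment. The procedure was tested on simulated data. For a gene with several probe sets, lists used the one with the highest mean. A deviation is a value minus the mean of the controls of its experiment.

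The members and the lists were chosen with earlier results of these data known. Named genes are the members, the 4 of each list with the smallest unadjusted p, the 6 nearest in pattern to the mean of the members and the 3 nearest to each member. Rora, Itpr2 and Itpr3 are named as background, and Pcp4, Aldoc, Foxp2 and Skor2 as the genes of their list that were not lower. The list of Hox genes was added after values were seen. Alternatives were other scalings, filters, priors, weights, a replicate block, single experiments, another threshold and each array left out. Within experiments, deviations from the group mean correlated from -0.15 to 0.23 over probe sets between ethanol and control arrays of the same replicate number. Between arrays of other numbers they correlated from -0.23 to 0.21. With 2 or 3 arrays a group such deviations are tied to one another, so whether the numbers pair samples could not be told. Figures were drawn with matplotlib 3.10.9.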

Additional observations from a re-analysis of the deposited data

How the results depend on the processing

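limma called 0 probe sets at an adjusted p of 0.05 over both experiments, in either experiment and for the difference between them, while 2703, 1951, 2172 and 1432 had an unadjusted p under 0.05. Exceptions were 3 calls in experiment 2 with a trended and robust prior, 2 there with array weights, and 1 in experiment 1 fitted alone; an unmoderated linear model called 0. With each array left out in turn, calls ran from 0 to 1 over both experiments, 0 to 235 in experiment 1 (235 without ethanol replicate 1), 0 to 1 in experiment 2 and 0 to 94 for the difference between experiments (94 without the same array). The median difference of the 6 Purkinje cell genes in experiment 1 ran from -0.53 to -0.11 in these fits. In experiment 2, without ethanol replicate 3, Pcp2 was at 0.0877, Arhgef33 at 0.0201 and Rgs8 at 0.0139, and over all arrays left out they ran from -0.17 to 0.09 for Pcp2, from -0.17 to 0.01 for Rgs8 and from -0.15 to 0.02 for Arhgef33, so their sign rested on single arrays. Over both experiments all 6 genes stayed lower in every alternative run, and the median was -0.14 after quantile normalization, -0.20 with median centring and -0.10 with array weights. Of 372 alternatives for single genes, 5 turned the sign and 2 passed the threshold. With the replicate number as a block the calls stayed at 0 and the medians at -0.17, -0.31 and -0.09. The standard error over both experiments was then smaller for all 6 genes, with 0.0799 against 0.1177 for Pcp2 and 0.0536 against 0.0782 for Rgs8.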
